A study of Mus musculus with 18 samples.

Results

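The 9 mouse carbonic anhydrase genes Car2, Car3, Car4, Car7, Car8, Car10, Car11, Car12 and Car14 were followed through every library of a spinal cord RNA sequencing series. The 9 genes were taken by name from the 54446 genes counted. They were chosen by measured values, namely the counts of Car12, which lay far lower in 1 genotype than in the controls, and that difference and the values behind it are given as a description without a test. By symbol, 16 genes of the count table were carbonic anhydrases, and the 7 that were not taken are Car1, Car5a, Car5b, Car6, Car9, Car13 and Car15.

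The cords came from 18 untreated mice aged 10 months, 3 in each of 6 genotypes. NTg animals were non-transgenic C57BL/6 mice. The others were heterozygous knock-ins of human sequences: hATXN2 with 22 glutamines (Q22), hATXN2 with 33 glutamines (Q33), hTDP-43 (TDP-43), hATXN2-Q22 with hTDP-43 (the Q22 double knock-in) and hATXN2-Q33 with hTDP-43 (the Q33 double knock-in). ATXN2 and TDP-43 are RNA-binding proteins linked to amyotrophic lateral sclerosis. Each library was 1 animal and, by the protocols, whole cord. Genes that mark caudal cord nevertheless differed between libraries, as given below. A lower value can mean fewer cells that hold the RNA, less RNA per cell or a different share of cord segments. These cannot be told apart in bulk tissue. The sources used here do not give sex, litter or sequencing lane.

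Carbonic anhydrases are zinc enzymes that turn carbon dioxide and water into bicarbonate and a proton, and back. In nervous tissue they buffer the pH around active neurons and glia and work beside bicarbonate and proton transporters. The 9 genes fall into 3 kinds by what their proteins are known to do. Car2, Car3 and Car7 encode enzymes of the cytosol, Car4, Car12 and Car14 encode enzymes held at the cell surface with the active site outside, and Car8, Car10 and Car11 encode related proteins that lack the residues needed for catalysis.

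The start regions of 3 members are shown because Car12 and Car7 are the members on which the genotype comparisons turn, and Car14 is the other transmembrane surface enzyme. Each is the run of 250 bases before the RefSeq transcript start (GRCm38.p6), read 5′ to 3′ in the direction of transcription. The Car12 window is chr9:66713436-66713685 on the plus strand, the Car7 window is the first of 3 for that gene, chr8:104534450-104534699 on the plus strand, and the Car14 window is chr3:95904686-95904935 on the minus strand.
Car12: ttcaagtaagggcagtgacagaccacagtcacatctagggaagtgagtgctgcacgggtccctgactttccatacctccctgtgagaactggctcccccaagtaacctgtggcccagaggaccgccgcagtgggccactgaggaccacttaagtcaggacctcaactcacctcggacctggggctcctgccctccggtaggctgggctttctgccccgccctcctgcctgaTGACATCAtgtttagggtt
Car7: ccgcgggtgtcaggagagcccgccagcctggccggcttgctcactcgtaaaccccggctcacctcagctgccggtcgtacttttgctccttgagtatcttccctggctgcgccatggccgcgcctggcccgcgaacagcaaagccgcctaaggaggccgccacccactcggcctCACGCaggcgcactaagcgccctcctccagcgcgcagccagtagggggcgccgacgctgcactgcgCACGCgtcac
Car14: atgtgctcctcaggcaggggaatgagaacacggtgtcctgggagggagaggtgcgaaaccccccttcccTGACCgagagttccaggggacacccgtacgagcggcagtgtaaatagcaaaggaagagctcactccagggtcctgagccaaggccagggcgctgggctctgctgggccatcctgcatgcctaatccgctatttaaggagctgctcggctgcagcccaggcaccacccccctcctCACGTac
Capitals mark matches, on either strand, to 7 short motifs: ACGTG and GCGTG (the core of the hypoxia response element), GGTCA (a nuclear receptor half-site), the palindromic EBF site by its consensus, TAATTA (a homeodomain core), TATAAA (the TATA box) and TGACNTCA (a site of the CREB and ATF kind). The last was added after the Car12 sequence had been read, and where its N is C it also contains GGTCA on the other strand. The Car12 window held TGACATCA with its first base 19 bases before the start and none of the other 6 motifs. TGACNTCA was found in 7.49% of 32851 windows of this length. The Car7 window held GCGTG, read here as CACGC, at positions 76 and 10 bases before the start, and GCGTG was found in 28.2% of all windows. Of the Car7 windows not shown, the second held the EBF site 63 bases and GGTCA 159 bases before its start. The third held GCGTG 94 bases before its start. The EBF site was found in 0.779% of all windows. The Car14 window held ACGTG, read as CACGT, 7 bases before the start and GGTCA, read as TGACC, 181 bases before it. Those motifs were found in 16.6% and 35.2% of all windows. The GC content was 59.2% for Car12, 69.6% for Car7 and 62.0% for Car14, against a median of 52.4% over all windows. RefSeq windows were matched for 6 of the 9 members, and Car2, Car3 and Car8 were not matched.

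Levels are in CPM, which sets the counts of each library to 1 common total, after TMM, a correction for library makeup. Library totals ran from 16061359 to 30978678 counts, and 3 counts, the limit that a count of 0 allows, corresponded to 0.101 to 0.176 CPM. Counting limits of this kind cover counting error only. All 9 members passed the filter on low counts, as did 20635 genes in all. Some library properties differed with genotype. Mitochondrial ribosomal RNA took 23.4% to 28.7% of counts in Q33 double knock-ins and 12.7% to 23.4% in the other 15 libraries. The mean log2 CPM of 6 Hox10 and Hox11 genes, which mark caudal cord, was above 0 in all 3 Q33 double knock-ins (0.55 to 3.54), in 2 of 3 Q33 libraries and in 1 of 3 Q22 double knock-ins, and below 0 in the other 12. Y-linked genes exceeded 10 CPM in 0 of 3 NTg, 3 of 3 Q22, 2 of 3 Q33, 2 of 3 TDP-43, 1 of 3 Q22 double and 1 of 3 Q33 double knock-in libraries. Spinal cord markers summed to 519.7 to 812.7 CPM per library and forebrain markers to 3.06 to 6.09 CPM.

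To compare members with each other, CPM was divided by exon length in kilobases. In NTg cord Car2 was the most abundant, at 74.3 ± 5.87 CPM per kilobase (SD, n = 3). Car14 (23.4 ± 4.16) and Car10 (20.4 ± 1.18) followed, and their SDs overlapped. Car11 was at 6.55 ± 0.837, Car4 at 3.47 ± 1.36 and Car8 at 3.00 ± 0.535 CPM per kilobase, the last pair again within their spread. Car7 stood at 0.997 ± 0.297 and Car12 at 0.756 ± 0.112 CPM per kilobase, which did not differ beyond their SDs. Car3 was the lowest member at 0.280 ± 0.101 CPM per kilobase. Of the 7 carbonic anhydrase genes not taken, Car13, Car5b and Car15 passed the filter on low counts, with 2.17 ± 0.259, 1.08 ± 0.135 and 0.248 ± 0.124 CPM per kilobase, and Car1, Car5a, Car6 and Car9 did not pass.

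**Figure D1:**
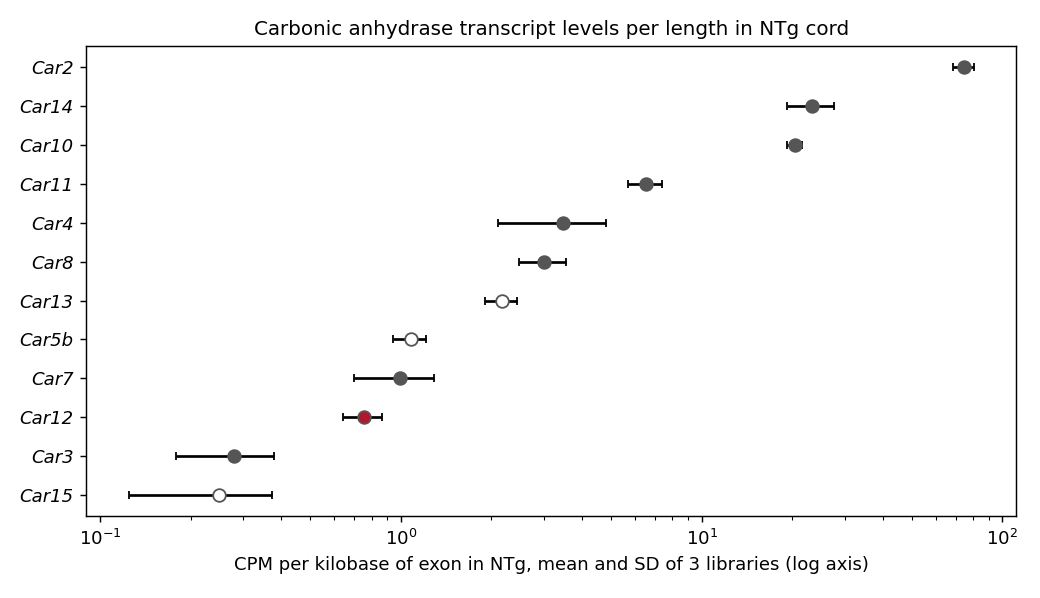
Level of the 12 carbonic anhydrase genes that passed the filter, in CPM per kilobase of exon on a log axis, in NTg cord; points are means and bars SDs of 3 libraries. Filled points are members, Car12 is red and open points are the other genes; Car2 stands highest at 74.3 and Car12 lies near Car7 and Car5b.

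Car12 (ENSMUSG00000032373.15, chr9:66713686-66766845, plus strand) encodes a transmembrane enzyme best known from epithelia and from cells under low oxygen. Its counts in NTg were 138, 100 and 151, which is 5.30, 5.22 and 6.72 CPM. In the Q33 double knock-in they were 4, 8 and 11, or 0.150, 0.322 and 0.487 CPM. All 3 Q33 double knock-ins lay below every one of the other 15 libraries, and each rested on 11 counts or fewer. The other genotypes lay between these levels. Q22 libraries had 2.74, 4.50 and 3.86 CPM, Q33 libraries 2.18, 2.79 and 1.30 CPM, TDP-43 libraries 5.86, 2.66 and 6.01 CPM, and Q22 double knock-ins 3.93, 5.81 and 5.07 CPM. Q33 libraries were the next lowest group, and 1 TDP-43 library lay among them while the other 2 lay among NTg.

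By genotype mean Car12 ran from 5.75 ± 0.847 CPM in NTg (SD, n = 3) through 4.94 ± 0.948 in the Q22 double knock-in, 4.84 ± 1.89 in TDP-43, 3.70 ± 0.889 in Q22 and 2.09 ± 0.748 in Q33 to 0.320 ± 0.168 in the Q33 double knock-in. Neighbours in this order overlapped in their libraries, apart from Q33 and the Q33 double knock-in. The Q33 double knock-in was 18.1-fold below NTg, a log2 difference of -4.18 (SE 0.41). Car12 was picked for this difference, so its size is a description. Against the other genotypes the Q33 double knock-in stood at -3.96 (SE 0.41) from the Q22 double knock-in, -3.92 (SE 0.41) from TDP-43 and -2.71 (SE 0.43) from Q33 on the log2 scale. These comparisons share the libraries by which Car12 was picked and carry no p-value. Over the highest and lowest of all 18 libraries Car12 spanned 44.8-fold, Car3 8.39-fold, and the other 7 members between 1.30-fold (Car10) and 2.80-fold (Car4).

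**Figure D2:**
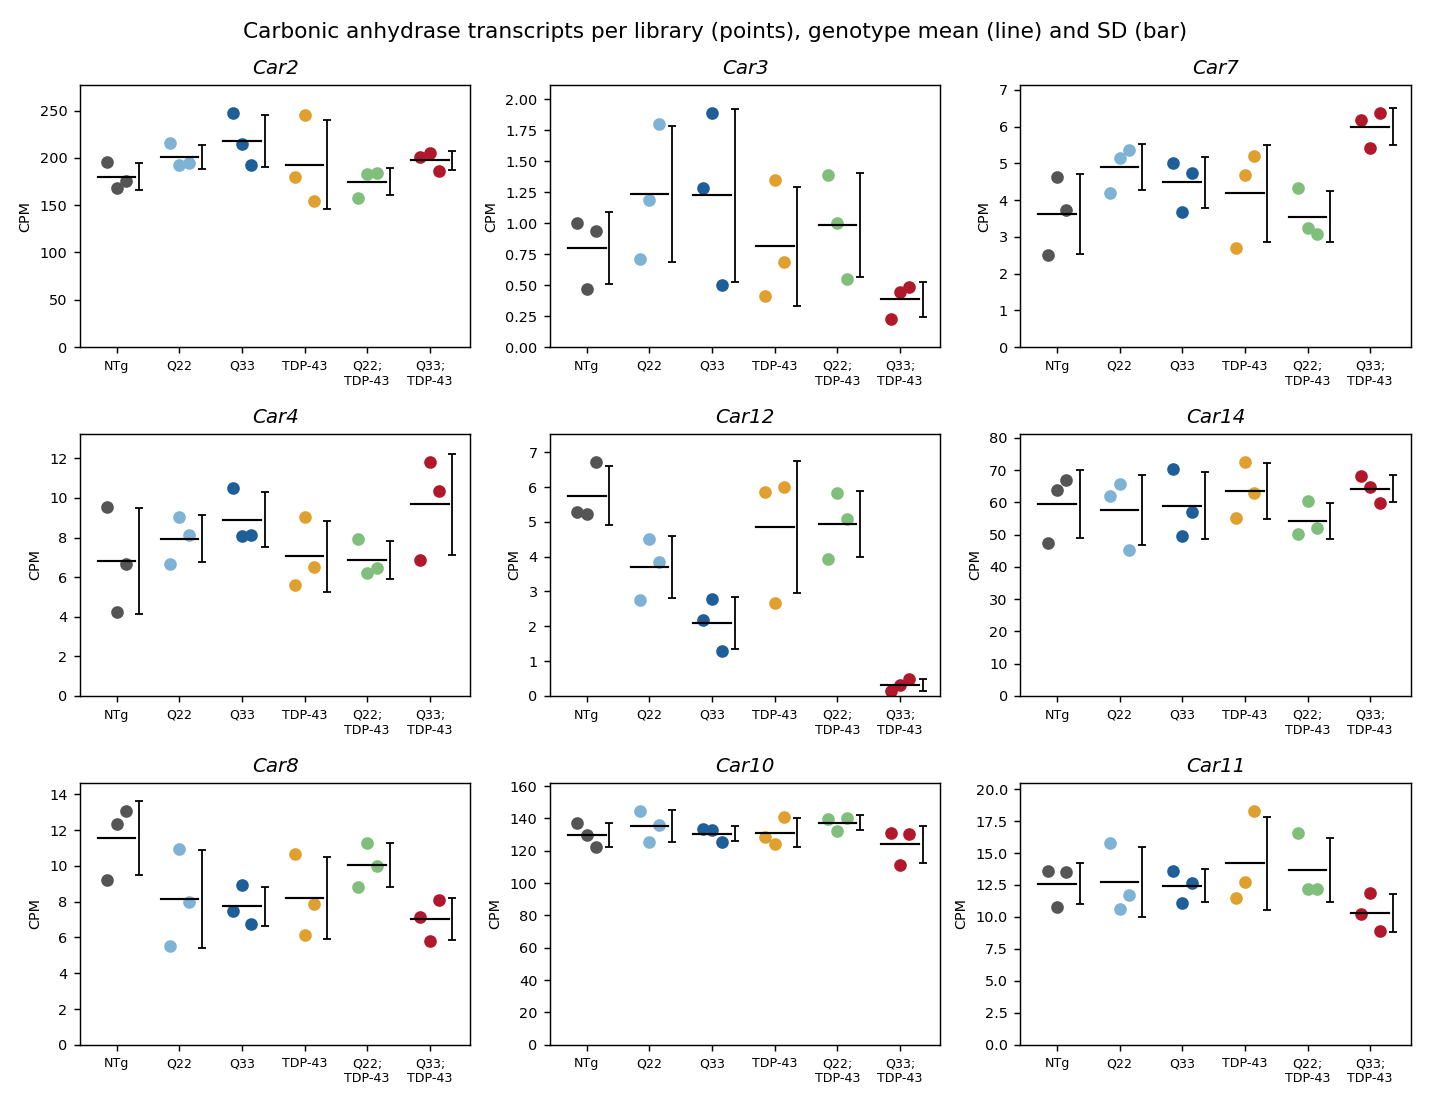
CPM of each member in the 18 libraries (points), with the genotype mean (line) and SD (bar, n = 3) in the 6 genotypes; every axis starts at 0. Car12 lies at 0.150 to 0.487 CPM in the Q33 double knock-in and at 1.30 CPM or more in every other library, while Car10 stays between 111 and 145 CPM.

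Each single knock-in was set against NTg to ask what 1 human allele was accompanied by. Car12 differed from NTg by -0.63 (SE 0.31) in Q22, by -1.46 (SE 0.33) in Q33, by -0.26 (SE 0.31) in TDP-43 and by -0.22 (SE 0.31) in the Q22 double knock-in on the log2 scale, again without a p-value. Y-linked genes exceeded 10 CPM in 0 of 3 NTg and 3 of 3 Q22 libraries, so genotype and sex cannot be told apart in the Q22 difference. No library of Q22 or Q33 reached the lowest NTg library, and libraries of TDP-43 and of the Q22 double knock-in overlapped with NTg. The TDP-43 difference rested on replicate 2, without which it was 0.05 (SE 0.29).

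In 3 comparisons that use neither NTg nor the Q33 double knock-in, Car12 was tested with the other members by edgeR's quasi-likelihood test over all genes. Q33 differed from Q22 by -0.83 (SE 0.33, 95% interval -1.53 to -0.13), with an unadjusted p of 0.0222 and an adjusted p of 1. The Q22 double knock-in differed from TDP-43 by 0.04 (SE 0.31, 95% interval -0.61 to 0.69, adjusted p = 1) and from Q22 by 0.42 (SE 0.32, 95% interval -0.24 to 1.08, adjusted p = 0.971). The difference between the Q22 double knock-in and TDP-43 turned to -0.26 without TDP-43 replicate 2 and to -0.09 without Q22 double knock-in replicate 2. None of the 9 members passed in any of these 3 comparisons, and neither did any other gene (0% of 20635 in each). At an unadjusted p under 0.05 the 3 comparisons held 442, 497 and 851 genes.

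Whether the 2 human alleles together gave more than their separate differences was asked by interaction terms. For Car12 the term of Q33 with TDP-43 was -2.45 (SE 0.54), that of Q22 with TDP-43 was 0.68 (SE 0.44), and the difference between tract lengths was larger by -3.13 (SE 0.54) with TDP-43 than without it, on the log2 scale and with no p-value. None of the 8 other members passed in these terms. Of all genes tested 0%, 0% and 0.344% passed in the Q22 term, the Q33 term and the tract length term, and 828, 2674 and 3141 had an unadjusted p under 0.05.

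Markers of several cell types differed between the Q33 double knock-in and NTg, as Car12 did. The lists here and below were chosen with earlier results of these data known. For this comparison, by which Car12 was picked, their counts and p-values are a description. A list of 12 dorsal horn neuron genes, which mark neurons of the sensory part of the cord, summed to 75.2 to 95.2 CPM in NTg, 63.4 to 81.0 in Q22, 48.9 to 77.1 in Q33, 56.4 to 88.3 in TDP-43, 87.7 to 93.5 in the Q22 double knock-in and 25.3 to 33.3 CPM in the Q33 double knock-in. The Q33 double knock-ins lay below all other libraries in this sum as in Car12. Of the 11 genes of that list that could be tested, 7 were lower and 0 higher in the Q33 double knock-in than in NTg, with a median log2 difference of -1.31 against -0.01 over all genes, where 12.1% of genes passed. At most 2 of the 12 genes were at 0 in any library. Lmx1b, a transcription factor of dorsal horn excitatory neurons, differed by -2.57 (SE 0.33, adjusted p = 0.000186 by edgeR) in that comparison. Fibrous astrocyte genes, 8 in all and none at 0 in any library, were lower for 6 and higher for 1. They summed to 1621 to 2493 CPM in NTg, 1711 to 1941 in Q22, 1474 to 1901 in Q33, 1714 to 2901 in TDP-43, 1451 to 2711 in the Q22 double knock-in and 887 to 1192 CPM in the Q33 double knock-in, again below all other libraries.

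Markers of the choroid plexus, the tissue that makes cerebrospinal fluid, were low throughout, and their sum too was lowest in the Q33 double knock-in. The 6 genes summed to 20.3 to 27.6 CPM in NTg, 15.3 to 22.3 in Q22, 14.9 to 20.6 in Q33, 14.8 to 24.5 in TDP-43, 23.3 to 28.4 in the Q22 double knock-in and 12.3 to 14.1 CPM in the Q33 double knock-in. Most of each sum was Prlr, the prolactin receptor. Otx2, a transcription factor of that tissue, had no count outside the Q22 double knock-in, and at most 2 of the 6 genes were at 0 in any library. Of the 4 that could be tested, 2 were lower than in NTg, Kl (-1.50, SE 0.24, adjusted p = 0.00111 by edgeR) and Prlr (-0.91, SE 0.21, adjusted p = 0.0121), and the median log2 difference was -1.20. Ttr did not pass (-2.10, SE 1.18, adjusted p = 0.256 by edgeR). Clic6 went the other way and did not pass (0.48, SE 0.30, adjusted p = 0.314). Over all genes 12.1% passed in that comparison.

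Microglia genes, 7 in all, were lower than in NTg for 2 (Csf1r and Cx3cr1), where 12.1% of all genes passed, with a median log2 difference of -0.43. They summed to 239 to 299 CPM in NTg, 219 to 281 in Q22, 209 to 254 in Q33, 214 to 280 in TDP-43, 205 to 298 in the Q22 double knock-in and 181 to 208 CPM in the Q33 double knock-in. The Q33 double knock-in lay below NTg and overlapped with the Q22 double knock-in.

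Motor neuron genes all had a positive difference from NTg, with a median of 0.65, and 2 of 10, Esrrg and Ret, passed, where 12.1% of all genes did. They summed to 319 to 473 CPM in NTg, 352 to 453 in Q22, 414 to 616 in Q33, 294 to 470 in TDP-43, 267 to 359 in the Q22 double knock-in and 459 to 714 CPM in the Q33 double knock-in, so that the last overlapped with NTg. Of 13 meningeal genes, 11 could be tested, and 2 were higher (Ptgds and Igfbp2) and 1 lower (Col1a2), against the same 12.1% of all genes. The median of the meningeal genes was 0.46. Their sums were 76.1 to 96.4 CPM in NTg, 101 to 120 in Q22, 109 to 127 in Q33, 68.6 to 144 in TDP-43, 65.3 to 108 in the Q22 double knock-in and 118 to 165 CPM in the Q33 double knock-in. No microglia or motor neuron gene of these lists was at 0 in any library, and at most 1 of the meningeal genes was. The part of any of these cell types in the Car12 difference was not tested.

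Caudal Hox genes and the mitochondrial RNA share also differed between the Q33 double knock-in and NTg. The Q22 double knock-in library with a Hox mean of 3.51 had 3.93 CPM of Car12, and the Q33 double knock-in library with 3.54 had 0.322 CPM. A Q33 library with 23.4% mitochondrial ribosomal RNA had 2.79 CPM, and a Q33 double knock-in library with the same share had 0.487 CPM. With the Hox mean as a covariate the Car12 difference of the Q33 double knock-in from NTg was -4.07 (SE 0.47), and with the mitochondrial share as a covariate it was -4.03 (SE 0.55). These fits use the libraries by which Car12 was picked, and the part of either measure in the Car12 difference was not tested.

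**Figure D3:**
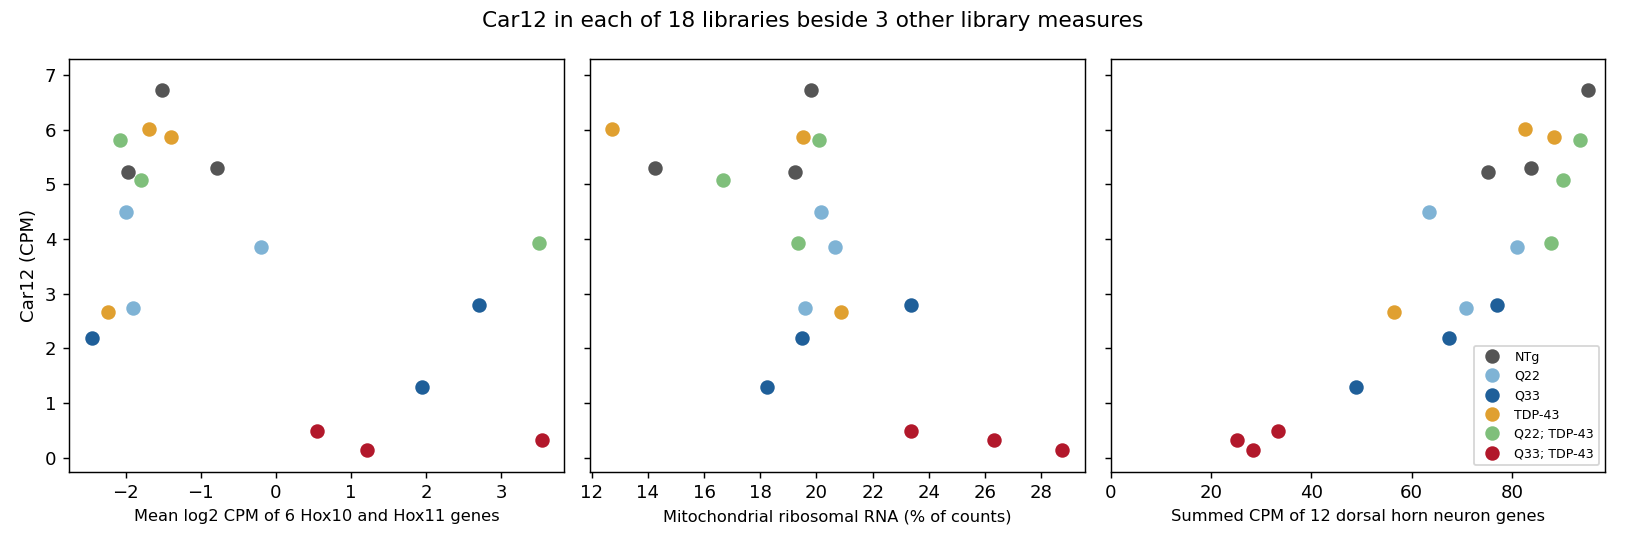
Car12 in CPM for the 18 libraries, coloured by genotype, against the mean log2 CPM of 6 caudal Hox genes (left), the percentage of counts in mitochondrial ribosomal RNA (middle) and the summed CPM of 12 dorsal horn neuron genes (right). The 3 Q33 double knock-ins lie below 0.5 CPM of Car12 and below 34 CPM of the dorsal horn sum, and a Q22 double knock-in with a Hox mean of 3.51 holds 3.93 CPM of Car12.

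The genes whose levels followed Car12 most closely were ranked by Pearson's r in log2 CPM over the 18 libraries, among 16277 other genes whose mean reached 1 CPM. All points share their libraries and the same genotype shifts, so r is a description. The 5 highest were Ebf2 (r = 0.98), Gpr26 (0.98), Hpcal4 (0.97), Prrxl1 (0.97) and Myo5b (0.97). Ebf2 encodes a helix-loop-helix transcription factor, Hpcal4 a neuronal calcium sensor, Prrxl1 a homeodomain factor of pain circuits that is also on the dorsal horn list, and Myo5b a motor of recycling endosomes. Ebf2 ran from 29.6 ± 7.03 CPM in NTg to 2.38 ± 1.43 CPM (SD, n = 3) in the Q33 double knock-in, and Prrxl1 from 11.5 ± 1.01 to 3.28 ± 0.855 CPM. When each genotype's mean was subtracted, leaving the variation between animals of 1 genotype, the 5 highest were Cfap54 (r = 0.92), Cfap44 (0.92), Cdhr3 (0.91), Dnah1 (0.91) and Ankrd44 (0.91), of which Cfap54, Cfap44 and Dnah1 encode parts of motile cilia. No gene stood in both sets of 5. Among the members ranked, which leave out Car3 with a mean of 0.907 CPM, Car8 was closest to Car12 in both. Its r was 0.61 over the libraries and 0.66 after subtracting genotype means, at ranks 2211 and 544 of the 16277 genes. Car7 had r = -0.64 and -0.20. In a list of ependymal genes, which mark the ciliated lining of the central canal, none passed in the Q33 double knock-in against NTg. Foxj1 alone had a positive log2 difference (0.28, SE 0.21), and the lowest was that of Ak7 (-0.94, SE 0.35, adjusted p = 0.0841 by edgeR). Against TDP-43 only Ak7 passed, as lower (-1.17, SE 0.35, adjusted p = 0.0344). The part of ependymal cells in the Car12 values was not tested.

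**Figure D4:**
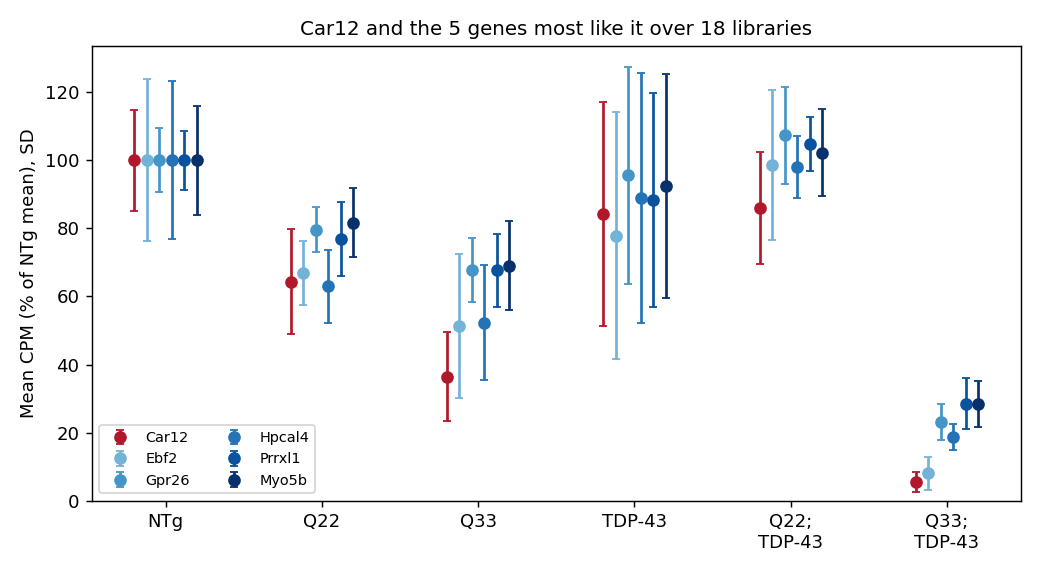
Mean CPM as a percentage of the NTg mean, with SD scaled in the same way (n = 3), for Car12 (red) and the 5 genes with the highest r with it over 18 libraries (blue), by genotype. All 6 genes are lowest in the Q33 double knock-in, and Car12 falls to the smallest share of its NTg mean.

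Among the cytosolic enzymes, Car7 was the only one of the 8 members other than Car12 to pass a test in any comparison. Car7 (ENSMUSG00000031883.13, chr8:104534689-104550343, plus strand) is an enzyme of neurons that supplies bicarbonate for GABA-gated currents. It had 6.19, 5.43 and 6.37 CPM in the Q33 double knock-in and 4.34, 3.23 and 3.09 CPM in the Q22 double knock-in. NTg libraries had 2.49, 4.64 and 3.74 CPM, Q22 libraries 4.21, 5.14 and 5.37, Q33 libraries 5.01, 3.69 and 4.75, and TDP-43 libraries 2.69, 4.68 and 5.20 CPM. All 3 Q33 double knock-ins lay above all 15 other libraries, by 5.43 against 5.37 CPM at the closest. The share of all genes that separate in this way is not given here. Against the Q22 double knock-in Car7 was 1.68-fold higher, a log2 difference of 0.75 (SE 0.24, adjusted p = 0.0459 by edgeR, higher in 3 of 3 libraries), where 12.8% of all genes passed. So 1 of the 8 members tested passed, a share near that of all genes.

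The Car7 call was close to the threshold and depended on single libraries. It was kept without Q22 double knock-in replicate 1 (adjusted p = 0.0314) and lost without replicate 2 (0.139) or 3 (0.184) of that genotype and without Q33 double knock-in replicate 1 (0.142), 2 (0.0621) or 3 (0.0858). The difference stayed between 0.66 and 0.92 in these fits. It was also lost with library totals in place of TMM (adjusted p = 0.132), with the caudal Hox mean (0.0766) or the mitochondrial share (0.372) as a covariate, and when only the 2 genotypes were fitted (0.052). Car7 stood at 0.50 (SE 0.24, adjusted p = 0.172) from TDP-43, at 0.42 (SE 0.24, adjusted p = 0.374) from Q33 and, as a description, at 0.74 (SE 0.24) from NTg.

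Car2 (ENSMUSG00000027562.12, chr3:14886273-14900770, plus strand) is the enzyme of oligodendrocytes and red cells. It ranged from 154 to 247 CPM. The genotype means ran from 175 ± 14.6 CPM in the Q22 double knock-in to 218 ± 27.7 CPM in Q33 (SD, n = 3). The Q33 libraries had 247, 214 and 192 CPM and the NTg libraries 196, 168 and 176 CPM, which overlapped, with a log2 difference of 0.28 (SE 0.13, adjusted p = 0.681 by edgeR). Erythroid genes, which include the globins, summed to 228 and 214 CPM in the first 2 Q33 libraries and to 222 CPM in the TDP-43 library with 245 CPM of Car2, and to 92.0 CPM or less in the other 15. The part of blood in these Car2 values was not tested. In the Q33 double knock-in Car2 had 201, 205 and 186 CPM, within the range of the other groups. Its log2 difference from NTg was 0.13 (SE 0.13). Of 10 oligodendrocyte and myelin genes, 3 passed as lower and 0 as higher in that comparison, where 12.1% of all genes passed. Their median log2 difference was -0.29. The part of oligodendrocytes in the Car2 values was not tested.

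Car3 (ENSMUSG00000027559.5, chr3:14863512-14872523, plus strand), the muscle and fat enzyme whose gene lies beside Car2, was at the lower limit of measurement. It had 26, 9 and 21 counts in NTg and 6, 11 and 11 counts in the Q33 double knock-in, which is 0.998, 0.470 and 0.935 CPM against 0.225, 0.442 and 0.487 CPM, and the ranges overlapped. Q22 had 0.709, 1.19 and 1.80 CPM, Q33 had 1.28, 1.89 and 0.498, TDP-43 had 0.410, 1.35 and 0.690, and the Q22 double knock-in had 1.39, 1.001 and 0.553 CPM. The Q33 double knock-in differed by -1.66 (SE 0.56, adjusted p = 0.125) from Q33 and by -1.36 (SE 0.56, adjusted p = 0.117) from the Q22 double knock-in by edgeR, and neither passed. Both passed when the filter on low counts was left out (adjusted p = 0.0142 and 0.0389). The libraries highest in Car3, Q33 replicate 2 and Q22 replicate 3, also held the most skeletal muscle RNA, with a sum of 8 muscle genes of 7.78 and 12.3 CPM against 0.976 to 5.01 CPM in the other 16. The Q33 double knock-ins had 0.976, 2.13 and 1.46 CPM of those genes, with up to 4 of 8 at 0, and at least 5 of 6 adipocyte genes at 0. The part of muscle or fat in the Car3 values was not tested.

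Of the surface enzymes besides Car12, neither passed in any comparison in which it was tested. Car4 (ENSMUSG00000000805.18, chr11:84957786-84966044, plus strand) is held by a lipid anchor on brain capillaries and some glia. It had 6.87, 11.8 and 10.4 CPM in the Q33 double knock-in, 9.56, 4.23 and 6.68 CPM in NTg and 7.95, 6.20 and 6.46 CPM in the Q22 double knock-in, so that 2 of the 3 Q33 double knock-ins were above all libraries of these groups. The log2 difference was 0.49 (SE 0.25) from NTg, as a description, and 0.49 (SE 0.25, adjusted p = 0.21 by edgeR) from the Q22 double knock-in. All 8 endothelial genes of a list had a positive difference in the Q33 double knock-in from NTg, with a median of 0.51, and 2 of them passed, where 12.1% of all genes did. Their summed level was 369 CPM in each of the Q33 double knock-in libraries with 11.8 and 10.4 CPM of Car4 and 199 to 339 CPM in the other 16, among them a Q33 library with 10.5 CPM of Car4 and a sum of 317 CPM. The part of vessels in the Car4 values was not tested. In the remaining genotypes Car4 had 6.67 to 9.05 CPM in Q22, 8.10 to 10.5 in Q33 and 5.62 to 9.05 in TDP-43.

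Car14 (ENSMUSG00000038526.14, chr3:95897768-95904691, minus strand), a transmembrane enzyme of neurons and glia, had 68.2, 64.7 and 60.0 CPM in the Q33 double knock-in and 47.3, 63.8 and 67.0 CPM in NTg. The other 4 genotypes lay between 45.2 and 72.6 CPM, and all genotypes overlapped with NTg. The difference of the Q33 double knock-in from the Q22 double knock-in was 0.24 (SE 0.16, 95% interval -0.08 to 0.57, adjusted p = 0.323 by edgeR). Car14 and Car12 are both transmembrane surface enzymes, and Car14 differed from NTg by 0.12 (SE 0.16) where Car12 differed by -4.18 on the log2 scale.

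Of the 3 proteins without catalysis, Car8 had its highest genotype mean in NTg, Car10 varied least, and none passed in any comparison in which it was tested. Car8 (ENSMUSG00000041261.9, chr4:8143362-8239041, minus strand) binds the IP3 receptor, which releases calcium from internal stores. Car8 had 9.21, 12.4 and 13.1 CPM in NTg and 7.17, 5.79 and 8.10 CPM in the Q33 double knock-in. The log2 difference was -0.72 (SE 0.23), given as a description. The 2 groups did not overlap, but the share of all genes that separate in this way is not given here. Q22 libraries had 5.53, 10.97 and 7.97 CPM, Q33 libraries 7.49, 8.95 and 6.78, TDP-43 libraries 10.7, 6.13 and 7.88, and Q22 double knock-ins 8.85, 11.3 and 10.0 CPM. Against NTg, Q33 stood at -0.58 (SE 0.23, adjusted p = 0.658 by edgeR), Q22 at -0.50 (SE 0.23, adjusted p = 0.908) and TDP-43 at -0.50 (SE 0.23, adjusted p = 0.997). Against the Q22 double knock-in the Q33 double knock-in stood at -0.52 (SE 0.23, adjusted p = 0.147). That difference passed with library totals in place of TMM (-0.75, adjusted p = 0.0412), a scaling that moves the median of all genes to -0.25 in this comparison. Of the 3 IP3 receptor genes, 0 passed in any comparison with the Q33 double knock-in. The span of Car8 overlaps that of Gm11799 on its own strand, and pairs in any exons that the 2 share were not counted.

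Car10 (ENSMUSG00000056158.14, chr11:93098028-93601749, plus strand) encodes a secreted ligand of neurexins, the presynaptic adhesion receptors. It had the smallest spread of all members, from 111 to 145 CPM. The Q33 double knock-ins had 131, 111 and 130 CPM and NTg had 137, 130 and 122 CPM, with a log2 difference of -0.07 (SE 0.08). The Q22 double knock-ins had 140, 132 and 140 CPM, all above the Q33 double knock-ins by a small margin, a log2 difference of -0.15 (SE 0.08, 95% interval -0.32 to 0.03, adjusted p = 0.262 by edgeR). Car11 (ENSMUSG00000003273.14, chr7:45699843-45704682, plus strand), its close relative, had 10.2, 11.9 and 8.90 CPM in the Q33 double knock-in, 13.6, 10.7 and 13.5 in NTg and 16.6, 12.2 and 12.2 CPM in the Q22 double knock-in. The TDP-43 libraries had 11.5, 12.8 and 18.3 CPM, the last the highest of all 18, and their range overlapped with that of the Q33 double knock-in. Its log2 difference was -0.40 (SE 0.19, adjusted p = 0.169) from the Q22 double knock-in and -0.46 (SE 0.19, adjusted p = 0.116) from TDP-43. Without TDP-43 replicate 3 the latter was -0.22 (adjusted p = 0.522), and without Q22 double knock-in replicate 1 the former was -0.24 (adjusted p = 0.464). With library totals in place of TMM, Car10 and Car11 passed in both of those comparisons. That scaling moves the median of all genes to -0.25 in each of them, further than the TMM difference of Car10. Neurexin genes and the receptor phosphatases with a carbonic anhydrase-like domain, 5 in all, gave 1 gene that passed, Nrxn3, higher in the Q33 double knock-in than in TDP-43 by 0.32 (SE 0.10, adjusted p = 0.0371), in a comparison where 12.6% of all genes passed. That call was lost without TDP-43 replicate 1 (0.104) or 3 (0.15) and without Q33 double knock-in replicate 1 (0.215) or 3 (0.0625).

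**Figure D5:**
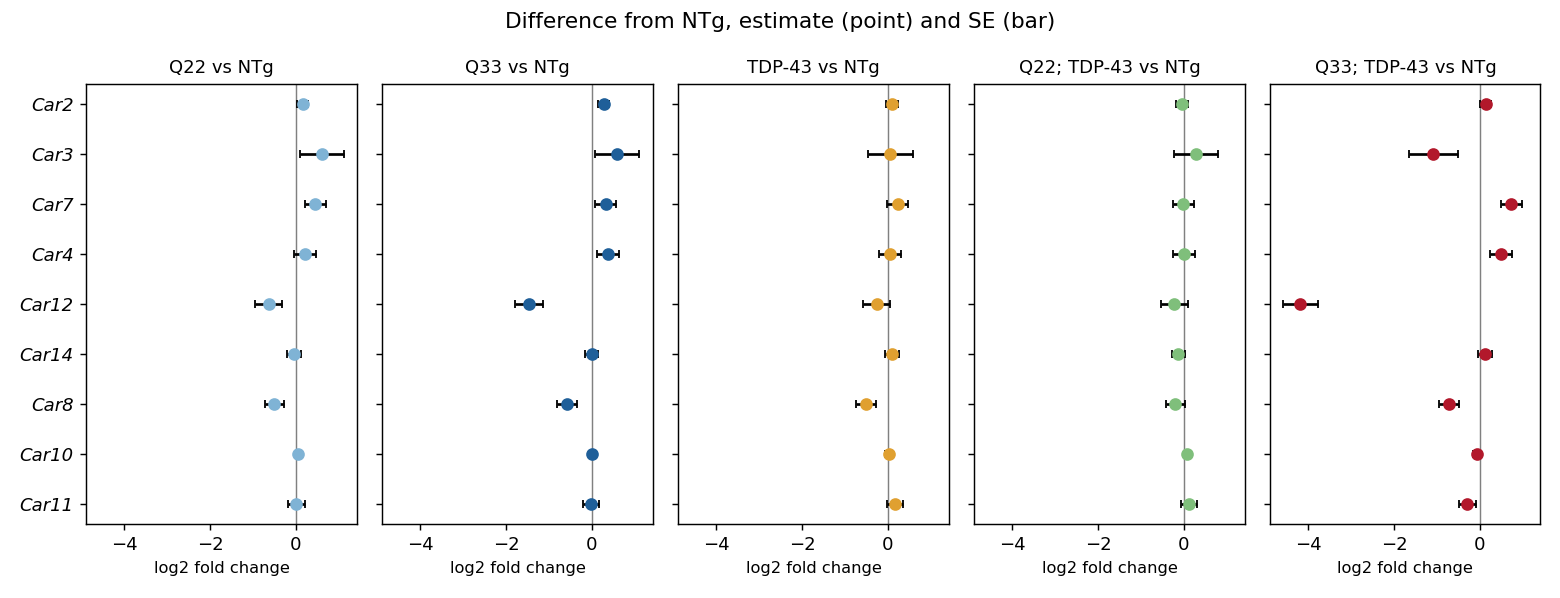
Log2 difference from NTg of the 9 members in the 5 other genotypes, estimate (point) and SE (bar), on 1 scale for all panels. Car12 stands at -4.18 in the Q33 double knock-in and -1.46 in Q33, and every other member lies between -1.08 (Car3) and 0.74 (Car7).

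Counted over the members, none of the 8 tested passed in Q22, Q33 or TDP-43 against NTg, where 0% of all genes passed in each and 873, 1502 and 873 genes had an unadjusted p under 0.05. None passed in the Q22 double knock-in against NTg either, where 0.00969% of genes (2 of 20635) passed and 474 had an unadjusted p under 0.05. In the Q33 double knock-in 0 of 8 passed against TDP-43, where 12.6% of all genes passed, and 0 of 8 against Q33, where 0.892% passed. The median log2 difference of the 9 members in the Q33 double knock-in was -0.07 from NTg, -0.15 from the Q22 double knock-in, -0.08 from TDP-43 and -0.14 from Q33, against -0.01, -0.01, -0.02 and -0.01 over all genes. The comparisons with the Q33 double knock-in share its libraries and are not independent of each other.

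Of the carbonic anhydrase genes not taken, Car5b, the X-linked mitochondrial enzyme, was lower in the Q33 double knock-in. Car5b had 3.55 ± 0.310 CPM there, 6.87 ± 0.858 in NTg, 6.93 ± 2.94 in the Q22 double knock-in, 7.24 ± 1.23 in TDP-43 and 6.12 ± 1.69 in Q33 (SD, n = 3). The log2 difference by edgeR was -0.95 (SE 0.25, adjusted p = 0.0216) from NTg, -0.97 (SE 0.25, adjusted p = 0.0184) from the Q22 double knock-in, -1.03 (SE 0.25, adjusted p = 0.0147) from TDP-43 and -0.78 (SE 0.25, adjusted p = 0.113) from Q33. All 3 libraries of the Q33 double knock-in, with 3.89 CPM at most, lay below every other library of these genotypes. How many of all genes separate in this way is not given here. The call against NTg was lost without NTg replicate 1 (0.0652) or 3 (0.0793) or Q33 double knock-in replicate 1 (0.0919) or 2 (0.0666). Against the Q22 double knock-in it was lost without replicate 2 of that genotype (-0.57, adjusted p = 0.133) and without Q33 double knock-in replicate 1 (0.0796) or 2 (0.0566), and against TDP-43 without TDP-43 replicate 3 (0.083) or Q33 double knock-in replicate 1 (0.0754). Neither Car13 nor Car15 passed against any of these genotypes.

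Carbonic anhydrases work beside transporters and channels for bicarbonate, protons, lactate and chloride, of which 21 of 23 listed genes could be tested. In the Q33 double knock-in 1 was higher and 2 lower than in NTg, 2 higher and 1 lower than in TDP-43, and 0 passed against Q33. Over all genes 12.1%, 12.6% and 0.892% passed in these comparisons, so the counts of the list were close to the background. The median log2 differences of the list were -0.03, 0.03 and 0.11. Aqp4, the astrocyte water channel, was lower than in NTg (-0.49, SE 0.12, adjusted p = 0.0149 by edgeR), the Q22 double knock-in (-0.43, SE 0.12, adjusted p = 0.0255) and TDP-43 (-0.40, SE 0.12, adjusted p = 0.0381). Aqp4 is also on the fibrous astrocyte list. Slc4a8, a sodium-driven bicarbonate exchanger of neurons, was higher than in the Q22 double knock-in (0.25, adjusted p = 0.0394) and TDP-43 (0.31, adjusted p = 0.0178). Asic1, a proton-gated channel, was higher than in NTg (0.39, adjusted p = 0.0265) and TDP-43 (0.35, adjusted p = 0.0435), and Slc16a7, a monocarboxylate transporter, was lower than in NTg (-0.48, adjusted p = 0.0248).

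These transporter calls rested on single libraries. Against the Q22 double knock-in, those of Aqp4 and Slc4a8 were lost without replicate 2 or 3 of that genotype and without Q33 double knock-in replicate 1 or 2, with adjusted p from 0.0609 to 0.153. Against NTg, all 3 were lost without NTg replicate 1 or 3 or Q33 double knock-in replicate 1, and those of Asic1 and Slc16a7 also without replicate 2, with adjusted p from 0.0566 to 0.131. Against TDP-43, all 3 were lost without TDP-43 replicate 1 or Q33 double knock-in replicate 1 or 2, those of Aqp4 and Asic1 without TDP-43 replicate 3 and that of Asic1 without Q33 double knock-in replicate 3, with adjusted p from 0.0529 to 0.188. The calls of these 4 genes, Car5b and Nrxn3 were all lost with the caudal Hox mean or the mitochondrial share as a covariate.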

How the data were processed

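RNA from 18 whole spinal cords was extracted (QIAzol, miRNeasy), depleted of ribosomal RNA and made into stranded SMARTer libraries, per the labels' protocols. Trim Galore 0.4.1, TopHat2, featureCounts, DESeq2 and mm10 are named in the submitters' processing notes. The deposited values are whole-number counts per gene from featureCounts 1.6.1, for read pairs assigned by strand to exons of 1 gene, per the file headers, so pairs shared by genes are missing. Exon lengths are other values the authors deposited beside the counts.

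Symbols were matched for 54409 of 54446 gene IDs (99.93%). Counts were tested with edgeR 4.0.16 in R 4.3.3 (quasi-likelihood, two-sided, TMM, filterByExpr with a minimum count of 10, all 18 libraries in 1 fit), with Benjamini-Hochberg adjustment over the 20635 genes kept and a threshold of 0.05. SEs were derived from the test, and log2 CPM used a prior count of 2. The code was tested on simulated data. P-values cover the spread between 3 animals of a genotype. The members and lists were chosen with earlier results of these data known. Car12 got no p where NTg or Q33 double knock-in libraries entered, and no member got one for the Q33 double knock-in against NTg. The text names Car12 throughout, the other members by library and where they passed, the 5 genes most like Car12, and up to 3 passing genes of a list with the smallest p. Foxj1 and Ak7 of the ependymal list and Otx2, Ttr and Clic6 of the choroid plexus list are named as well. Alternatives were DESeq2 1.42.0, library totals, no filter, removal of mitochondrial ribosomal RNA, covariates for caudal Hox genes, mitochondrial share and sex, fits of the compared groups only, and leaving out each library. Some results of gene lists are not reported here.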

Additional observations from a re-analysis of the deposited data

How the results depend on the processing

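No paired analysis was possible because the sources used here give no litter or other match between animals of different genotypes. The replicate numbers used here follow the order of the deposited samples. The log2 difference of Car12 between the Q33 double knock-in and NTg ran from -4.41 (library totals) to -4.03 (mitochondrial share as covariate) over 8 other settings, and from -4.59 to -3.82 when single libraries were left out. The number of members that passed in the Q33 double knock-in against the Q22 double knock-in was 1. It was 3 with library totals (Car8, Car10 and Car11), 2 without the filter on low counts (Car3 and Car7), and 0 with the caudal Hox covariate, with the mitochondrial share as covariate and with only the groups compared. It ran from 0 to 1 when single libraries were left out. Against TDP-43 it was 0, and 2 with library totals (Car10 and Car11). Against Q33 it was 0, and 1 without the filter (Car3). Library totals moved the median log2 difference of all genes from -0.01 to -0.25 against NTg and the Q22 double knock-in, and to -0.15 against Q33. Against TDP-43 that median moved from -0.02 to -0.25. In the other comparisons and interactions 0 members passed under every setting run. With the mitochondrial share as covariate 73 genes of all passed in the Q33 double knock-in against the Q22 double knock-in, in place of 2650. In the Q33 double knock-in against NTg, Car14 (0.12) was -0.12 with library totals and -0.0368 with the mitochondrial share as covariate, and ran from -0.0145 (without NTg replicate 1) to 0.22 when single libraries were left out. Car10 (-0.07) was 0.0543 with the mitochondrial share as covariate and ran from -0.10 to 0.00993 (without Q33 double knock-in replicate 2). Leaving out single libraries turned other signs. Car8 in the Q33 double knock-in against TDP-43 ran from -0.39 to 0.0212 (without TDP-43 replicate 1). Car12 in TDP-43 against NTg ran from -0.47 to 0.0463 (without TDP-43 replicate 2). Car12 in the Q22 double knock-in against TDP-43 ran from -0.26 (without TDP-43 replicate 2) to 0.26, with -0.09 without Q22 double knock-in replicate 2. The causes were not tested. With 3 animals a genotype and 4 to 11 counts of Car12 in the Q33 double knock-in, levels there are coarse.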
